A study of Homo sapiens and Mus musculus with 56 samples.

Results

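Serpins are a family of protease inhibitors, described here across 5 leukaemia cell models treated with a DOT1L inhibitor, a menin inhibitor or both. The set was defined by 9 human gene symbols, namely SERPINE2, SERPINA1, SERPINF1 and the clade B genes SERPINB1, SERPINB2, SERPINB6, SERPINB8, SERPINB9 and SERPINB10, together with their mouse orthologs. Of the 9 symbols, 7 had at least 1 probe set annotated to that symbol alone on the human array, with 17 probe sets in all, out of 19775 genes and 54675 probe sets. SERPINB2 and SERPINB6 were therefore not analysed here in human cells. On the mouse array 15 genes with 21 probe sets were annotated as orthologs of 7 of the 9 symbols, out of 18193 genes and 45101 probe sets, and mouse orthologs of SERPINE2 and SERPINB10 were not analysed here. The members were chosen with results of these same arrays known. Each treatment against DMSO and EPZ004777 against MI-2-2 are the comparisons that the choice used, so their values are given as a description, with no p-value. Where a call in them is mentioned or counted, it stands beside the share of all genes called, and nothing is read from it. The combination against each compound, the interaction and the comparison of effects between lines are differences of those same values, so they are not independent support either. An adjusted p printed for them takes no account of that choice and is given as a description only.

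A serpin inhibits a serine protease by offering its exposed reactive loop as a bait, and the cleaved loop traps the enzyme in a dead covalent complex. Extracellular members control clotting, fibrinolysis and tissue remodelling, whereas clade B members lack a classical signal peptide and mostly protect the cytoplasm and nucleus of leukocytes from their own granule proteases. SERPINE2 (protease nexin 1) is a secreted inhibitor of thrombin, plasmin and the plasminogen activators that is bound by heparan sulfate. RefSeq's annotation of GRCh38.p14 places SERPINB1 at chr6:2832332-2841863 and SERPINB9 at chr6:2887270-2903309, close to SERPINB6 at chr6:2948159-2971793. On chromosome 18 SERPINB2 (chr18:63887705-63903888), SERPINB10 (chr18:63907958-63936111) and SERPINB8 (chr18:63970081-64019779) lie side by side in a clade B cluster. SERPINA1 is at chr14:94376747-94390635 and SERPINF1 at chr17:1762060-1777565.

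EPZ004777 inhibits DOT1L, the histone H3 lysine methyltransferase recruited by KMT2A (MLL) fusion proteins, and MI-2-2 blocks the binding of menin to KMT2A and its fusions. The human lines were RS4;11 and SEM, B-precursor leukaemia lines with a KMT2A-AFF1 fusion, REH, a B-precursor line without a KMT2A fusion, and MOLM-13, of acute myeloid leukaemia and carrying KMT2A-MLLT3. The mouse cells were leukaemic cells transformed by MLL-AF9, labelled as a primary culture and grown with interleukin 6, interleukin 3 and stem cell factor. RS4;11, SEM and REH received DMSO, 3 µM EPZ004777, 10 µM MI-2-2 or both for 6 days. For MOLM-13 and mouse cells the groups were DMSO, 3 µM EPZ004777, 3 µM MI-2-2 and both, for 4 days. In the combination each compound was taken to be at its single dose. There were 56 arrays in 20 groups, with 3 arrays per group except 2 for RS4;11 DMSO and 2 for SEM under DMSO, MI-2-2 and the combination. Each array value is a log2 signal, so a difference of 1 is a doubling. The labels call the arrays of a group biological replicates and give no further detail.

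All 7 measured B-lineage markers lay above percentile 40 of the array on every RS4;11 and SEM array, and 6 of 7 did in REH (not VPREB1). In MOLM-13, 7 of 9 myeloid markers did, and in the mouse cells 8 of 9. Some markers of the other lineage did so too. These were CD79A, CD79B and PAX5 in MOLM-13, and Cd79a, Cd79b, Vpreb1 and Vpreb3 in the mouse cells. In RS4;11 and SEM they were LYZ, CSF1R, ITGAM and CEBPA, and in REH MPO, CSF1R and ITGAM. Of the 5 T and NK markers, CD3E, CD3G and CD2 were above percentile 40 on no human array. NKG7 was above it on every human array, and CD3D on every MOLM-13 array. Array medians were 5.54 to 5.66 in RS4;11, SEM and REH but 6.18 to 6.25 in MOLM-13, so no difference in level between MOLM-13 and another line is read as a result. The 3′ minus 5′ actin signal, which grows as RNA degrades, was 1.83 to 1.93 on SEM arrays with MI-2-2 or both compounds, against 2.32 to 2.48 on the other SEM arrays. In the mouse cells it was 0.478, 1.12 and 1.99 on the 3 combination arrays, against 0.377 to 0.628 on the other 9. In REH the actin value was 3.11, 2.75 and 3.65 on the DMSO arrays, against 2.36 to 2.87 on the other REH arrays. The REH DMSO arrays correlated with each other at 0.984 to 0.992, the lowest of the human groups. They enter each REH difference from DMSO and each comparison of another line with REH, and the part of RNA quality there was not tested. In bulk RNA of this kind, fewer expressing cells and less RNA per cell cannot be told apart. A gene was called changed at a Benjamini-Hochberg adjusted p under 0.05 over all genes of the model in limma.

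SERPINE2 is at chr2:223975045-224039286 on the minus strand of GRCh38.p14. RefSeq's promoter table lists 2 start sites for it, and the 250 bases before each are shown because SERPINE2 had the widest gap between the single compounds of any member, in RS4;11. The first window is chr2:224031479-224031728 (minus strand, 53.2% G and C) and the second is chr2:224038641-224038890 (minus strand, 75.2% G and C). Capitals mark CCAAT or its reverse ATTGG, the core of the CCAAT box bound by NF-Y.
SERPINE2 window 1: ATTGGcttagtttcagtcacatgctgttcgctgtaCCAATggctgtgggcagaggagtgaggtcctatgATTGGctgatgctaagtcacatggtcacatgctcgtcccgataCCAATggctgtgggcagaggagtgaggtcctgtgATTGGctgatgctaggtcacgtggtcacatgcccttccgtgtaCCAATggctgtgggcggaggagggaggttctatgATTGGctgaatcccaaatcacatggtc
SERPINE2 window 2: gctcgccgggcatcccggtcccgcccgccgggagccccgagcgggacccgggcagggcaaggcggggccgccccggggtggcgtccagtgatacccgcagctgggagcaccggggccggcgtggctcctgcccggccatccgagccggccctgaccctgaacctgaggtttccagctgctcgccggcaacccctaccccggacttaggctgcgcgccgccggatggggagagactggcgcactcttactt
The first window holds 7 such matches in a repeated unit and the second holds 0. Of 35116 promoter windows of that length in the table, 32% held at least 1 match and 7, or 0.0199%, held at least 7. The GC box, ETS core, E-box and TATA box were also counted, in 12 windows of 7 members. The share is thus that of a motif and window picked among several, and nothing is read from it. Window 1 also held 1 GC box and 1 E-box, and window 2 held 2 GC boxes. A match is a description of the letters and not a binding site, and the arrays do not tell which start was used.

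SERPINE2 was lower with MI-2-2 than with EPZ004777 in RS4;11, SEM and MOLM-13. In RS4;11 and MOLM-13 this gap was the widest among the members on the probe set that stood for each gene. In MOLM-13 the means were 7.01 with EPZ004777 and 6.01 with MI-2-2. There the second SERPINA1 probe set, 202833_s_at, had a wider gap (5.81 and 4.60), and the dim second SERPINE2 probe set had none (4.04 and 4.07). In RS4;11 its log2 signal was 9.31 and 9.26 with DMSO, 9.92, 10.03 and 9.95 with EPZ004777, 7.50, 7.42 and 7.37 with MI-2-2, and 8.30, 8.42 and 8.32 with both. No group overlapped another, and the order was EPZ004777, DMSO, combination, MI-2-2. The difference from DMSO was 0.68 ± 0.07 (SE) for EPZ004777, −1.85 ± 0.07 for MI-2-2 and −0.93 ± 0.07 for the combination, and EPZ004777 exceeded MI-2-2 by 2.54 ± 0.06, or 5.80-fold, at unequal doses. The combination differed from EPZ004777 alone by −1.62 ± 0.06 (adjusted p = 3.83e-08) and exceeded MI-2-2 alone by 0.92 ± 0.06 (adjusted p = 5.47e-06). The interaction, the combination minus the sum of the single effects, was 0.24 ± 0.09 and was not called (adjusted p = 0.252), with a 95% interval of 0.03 to 0.44. The second probe set, 227487_s_at, was dimmer and showed the same order, at 4.29 and 4.08 with DMSO, 5.13, 4.99 and 4.87 with EPZ004777, 3.60, 3.58 and 3.58 with MI-2-2 and 3.75, 3.74 and 4.00 with both.

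**Figure D1:**
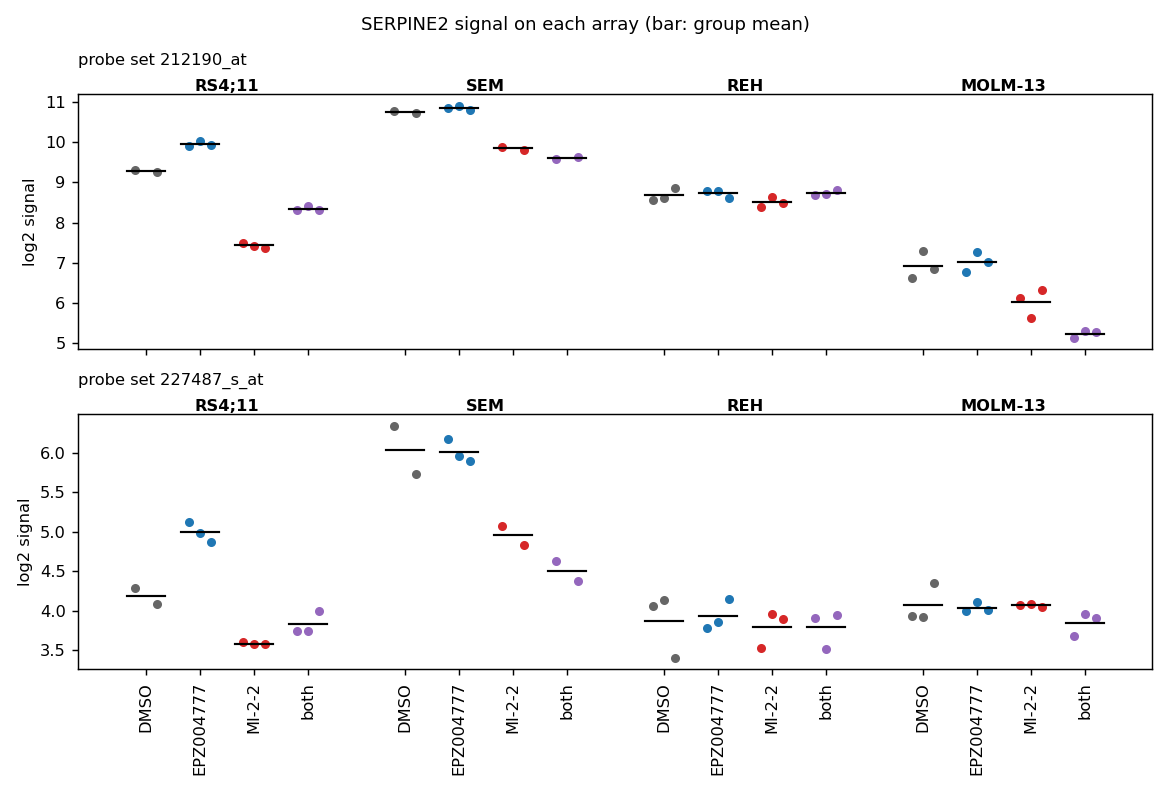
Log2 signal of SERPINE2 (vertical axis) on each array of the 4 human lines by treatment (horizontal axis), for probe set 212190_at above and 227487_s_at below; points are arrays and bars group means. In RS4;11 the MI-2-2 arrays (7.37 to 7.50) lie lowest and the EPZ004777 arrays (9.92 to 10.03) highest on 212190_at, while the REH groups overlap.

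In SEM, SERPINE2 stood at 10.78 and 10.74 with DMSO, 10.87, 10.92 and 10.81 with EPZ004777, 9.90 and 9.81 with MI-2-2, and 9.58 and 9.62 with both. The MI-2-2 and combination arrays were all below the DMSO arrays, and the combination arrays were the lowest. The differences from DMSO were 0.11 ± 0.06 for EPZ004777, −0.91 ± 0.07 for MI-2-2 and −1.16 ± 0.07 for the combination. The combination differed from EPZ004777 alone by −1.26 ± 0.06 (adjusted p = 1.17e-05), and from MI-2-2 alone by −0.25 ± 0.07, which was not called (adjusted p = 0.0972). The actin 3′ to 5′ values split the SEM arrays the same way, and with that value as a covariate the combination differed from EPZ004777 by −1.47 ± 0.33 (adjusted p = 0.262). The covariate separates the arrays with MI-2-2 from those without it, so little of the difference can be estimated apart from it.

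In REH all 12 arrays lay between 8.38 and 8.87 and the 4 treatment groups overlapped, except that the combination arrays (8.68, 8.70 and 8.80) were above the MI-2-2 arrays (8.38, 8.65 and 8.48). The differences from DMSO were 0.05 ± 0.11 for EPZ004777, −0.18 ± 0.11 for MI-2-2 and 0.05 ± 0.11 for the combination.

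In MOLM-13, SERPINE2 was 6.62, 7.28 and 6.84 with DMSO, 6.76, 7.26 and 7.01 with EPZ004777, 6.12, 5.61 and 6.31 with MI-2-2, and 5.12, 5.28 and 5.27 with both. The EPZ004777 and DMSO arrays overlapped, and each of the other 2 groups was below them and apart from the other. The differences from DMSO were 0.10 ± 0.20, −0.90 ± 0.20 and −1.69 ± 0.20 for EPZ004777, MI-2-2 and both. The combination differed by −1.79 ± 0.20 from EPZ004777 alone (adjusted p = 8.22e-05) and by −0.79 ± 0.20 from MI-2-2 alone (adjusted p = 0.00971), and the interaction was −0.88 ± 0.29 (adjusted p = 0.0702). The combination was thus above MI-2-2 alone in RS4;11 and below it in MOLM-13, at another dose and duration, and the difference between the lines was not tested. On 227487_s_at, which lay at or under percentile 23.1 of every MOLM-13 array, the combination differed from DMSO by −0.22 ± 0.11.

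The mean SERPINE2 response of RS4;11 and SEM was set against that of REH in a fit of the 32 arrays of these lines, as a description, since it is built from the comparisons that chose the members. The MI-2-2 effect was −1.20 ± 0.10 relative to REH, the combination effect −1.09 ± 0.10 and the EPZ004777 effect 0.35 ± 0.10. The EPZ004777 effect came mostly from RS4;11: the means with DMSO and EPZ004777 were 9.28 and 9.96 there, 10.76 and 10.87 in SEM and 8.68 and 8.73 in REH. Over all 14943 genes 5.25% were called for the EPZ004777 effect, 13.6% for the MI-2-2 effect and 20.7% for the combination effect, and the same DMSO arrays enter all 3. The DMSO level of SERPINE2 was highest in SEM and lowest in REH: RS4;11 minus SEM was −1.48 ± 0.16 (adjusted p = 3.48e-09), and RS4;11 exceeded REH by 0.60 ± 0.15 (adjusted p = 0.00092).

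Across the 16 human group means, each centred on its line, the genes whose pattern was most like that of SERPINE2 were B3GALNT1 (Pearson r = 0.94), PNMA1 (0.93), SFT2D3 (0.90), PIGL (0.88) and ZNF706 (0.88), out of 15852 genes. The 16 means share arrays and lines and are not independent, so no test is given. Of the other members, SERPINB1 had r = 0.46, SERPINF1 0.03, SERPINB9 −0.20, SERPINB10 −0.32, SERPINB8 −0.40 and SERPINA1 −0.42.

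**Figure D2:**
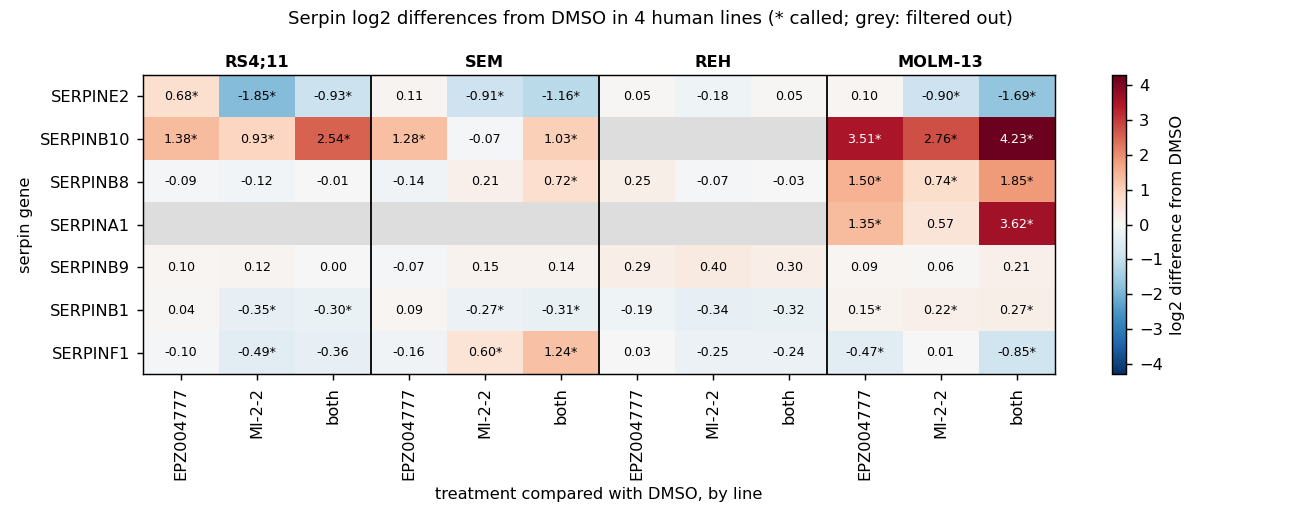
Log2 difference from DMSO of the 7 measured human serpins (rows) for EPZ004777, MI-2-2 and both compounds in 4 lines (columns); colour and printed value give the difference, an asterisk a call at adjusted p under 0.05, and grey a gene filtered out as dim. SERPINE2 is negative with MI-2-2 and with both compounds in RS4;11, SEM and MOLM-13, and SERPINB10 reaches 4.23 in MOLM-13. These columns are the comparisons that chose the members, and 1.34% to 48.9% of all genes were called in them. Nothing is read from an asterisk. SERPINB10 in RS4;11 and SEM and SERPINA1 in MOLM-13 passed the filter through treated arrays, so their asterisks are no test.

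Of the 6 members that passed the filter on dim probe sets in RS4;11, 2 were called in either direction with EPZ004777 (6.63% of all 13921 genes were called), 4 with MI-2-2 (12.6%) and 3 with both (23.5%). In SEM the counts of 6 were 1 (8.78% of 14037 genes called), 3 (17.8%) and 5 (29.6%). In MOLM-13 the counts of 7 were 5 (27.7% of 14209), 4 (18.5%) and 6 (48.9%). In REH limma called 0 of 5 in each treatment (4.11%, 1.34% and 7.49% of 13961 genes called), with 2 of the 15 comparisons at an unadjusted p under 0.05, and a fit shared by all 44 human arrays called 2. These counts describe the members that the choice itself favoured, and nothing is read from them. The median difference of the members with both compounds was −0.15 in RS4;11, 0.43 in SEM, −0.03 in REH and 0.27 in MOLM-13, against −0.04, −0.02, −0.005 and 0.00 over all genes tested. EPZ004777 against MI-2-2 gave 3 calls of 6 in RS4;11 (16.2% of all genes), 4 of 6 in SEM (22.9%), 5 of 7 in MOLM-13 (20.8%) and 0 of 5 in REH (2.79%; 1 at an unadjusted p under 0.05, and 3 called with array weights in limma). The combination against EPZ004777 and against MI-2-2 gave 10 calls of 14 in MOLM-13 (33% and 39.2% of all genes), 5 of 12 in RS4;11 (19.5% and 10.8%), 6 of 12 in SEM (26.7% and 4.81%) and 0 of 10 in REH (0.172% and 2.01%; limma, 1 at an unadjusted p under 0.05). Interactions were called for 0 of 6 members in RS4;11 (1.93%; limma, 2 at an unadjusted p under 0.05), 1 of 6 in SEM (0.969%), 2 of 7 in MOLM-13 (12.8%) and 0 of 5 in REH (0%; limma, 0 at an unadjusted p under 0.05).

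SERPINB10 (bomapin, a clade B serpin of bone marrow cells) rose with EPZ004777 and with both compounds in RS4;11, SEM and MOLM-13. In MOLM-13 its signal was 7.45, 7.71 and 7.12 with DMSO, 10.95, 10.88 and 10.97 with EPZ004777, 10.05, 10.36 and 10.14 with MI-2-2, and 11.66, 11.70 and 11.61 with both. Every treated array was above every DMSO array, and the 3 treated groups did not overlap. The differences from DMSO were 3.51 ± 0.13, 2.76 ± 0.13 and 4.23 ± 0.13. The combination exceeded EPZ004777 alone by 0.72 ± 0.13 (adjusted p = 0.00134) and MI-2-2 alone by 1.47 ± 0.13 (adjusted p = 7.82e-06), and it was short of the sum of the single effects, with an interaction of −2.03 ± 0.18 (adjusted p = 0.00017).

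In RS4;11, SERPINB10 was 4.57 and 4.57 with DMSO, 5.90, 6.03 and 5.91 with EPZ004777, 5.73, 5.27 and 5.50 with MI-2-2, and 6.68, 7.54 and 7.12 with both. The groups did not overlap, and the combination arrays were the highest. Against DMSO these are differences of 1.38 ± 0.20, 0.93 ± 0.20 and 2.54 ± 0.20. The combination exceeded EPZ004777 alone by 1.17 ± 0.18 and MI-2-2 alone by 1.61 ± 0.18, and the interaction was 0.24 ± 0.27.

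In SEM, SERPINB10 was 4.71 and 4.63 with DMSO, 6.21, 5.80 and 5.86 with EPZ004777, 4.74 and 4.47 with MI-2-2, and 5.85 and 5.55 with both. MI-2-2 arrays overlapped the DMSO arrays, and the EPZ004777 and combination arrays were above both. EPZ004777, MI-2-2 and both gave differences from DMSO of 1.28 ± 0.15, −0.07 ± 0.16 and 1.03 ± 0.16. The combination exceeded MI-2-2 alone by 1.10 ± 0.16, or by 0.94 without the first combination array. The DMSO arrays of RS4;11 and SEM lay between percentiles 34.4 and 37.1, below the filter, so the gene entered those fits through its treated arrays and had to differ, and no test is given. In REH it lay between 4.20 and 4.59 on all 12 arrays and did not pass the filter. In the fit of 32 arrays the effect in RS4;11 and SEM stood above that in REH by 1.40 ± 0.20 for EPZ004777, 1.77 ± 0.20 for the combination and 0.46 ± 0.20 for MI-2-2, again as a description.

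**Figure D3:**
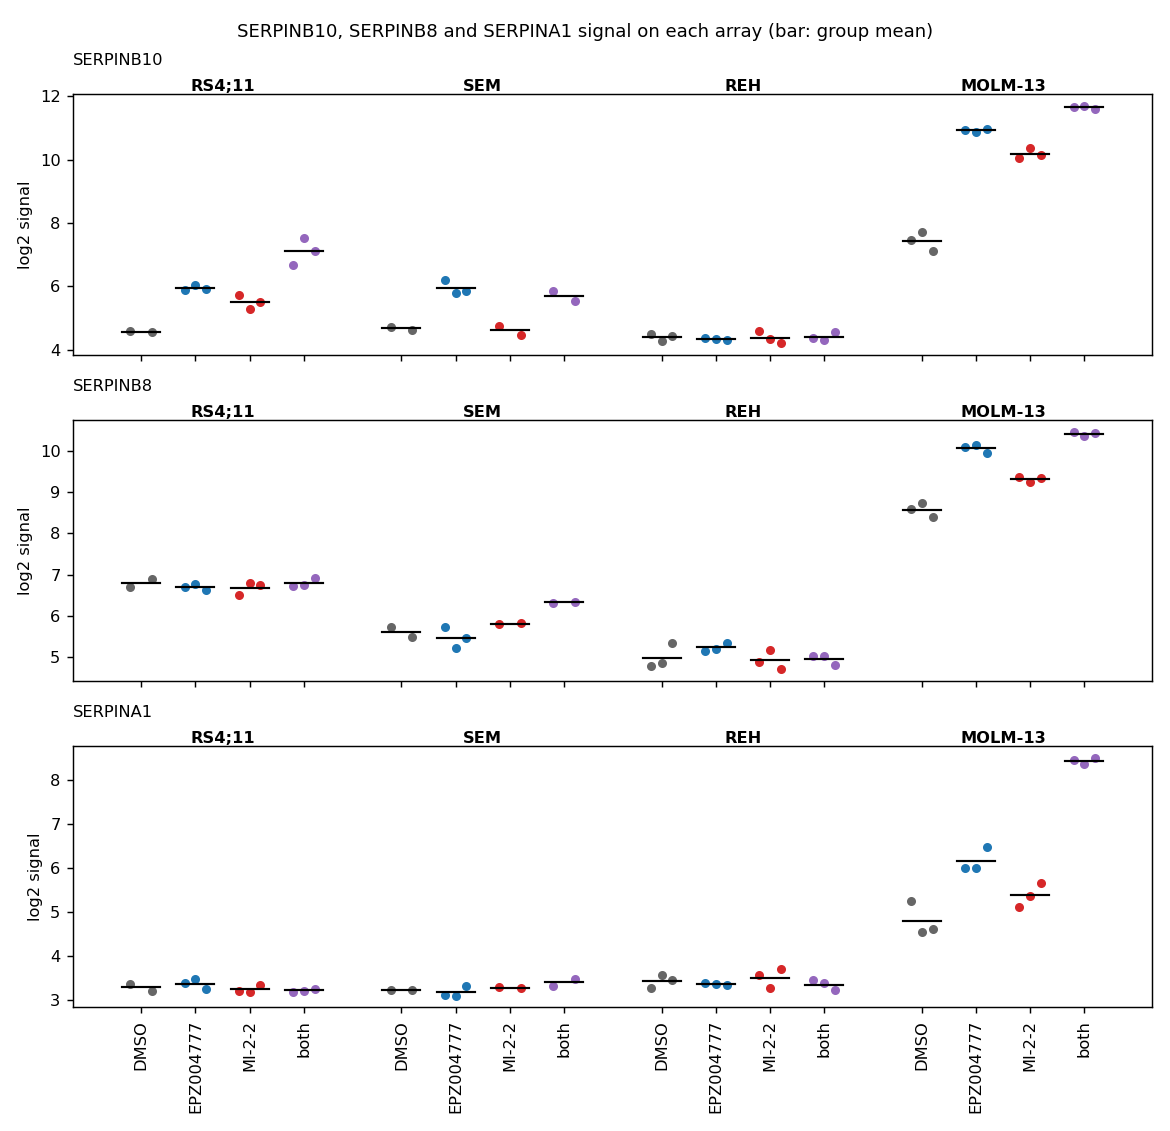
Log2 signal of SERPINB10, SERPINB8 and SERPINA1 (panels, vertical axes) on each array of the 4 human lines by treatment (horizontal axis); points are arrays and bars group means. In MOLM-13 the SERPINB10 arrays with both compounds lie at 11.61 to 11.70 and the SERPINA1 arrays at 8.35 to 8.50, above all other MOLM-13 arrays, while SERPINA1 is flat in the other lines.

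SERPINA1 encodes alpha-1-antitrypsin, the plasma inhibitor of neutrophil elastase, made by liver cells and also by monocytes from a start site farther upstream. The table's 2 windows for it are shown because SERPINA1 was measured above the filter in the myeloid line alone. They are chr14:94390636-94390885 and, nearer the coding sequence, chr14:94388603-94388852, both on the minus strand of GRCh38.p14. Capitals mark AGGAAG or its reverse CTTCCT, which contains the core letters of sites bound by ETS factors.
SERPINA1 window 1: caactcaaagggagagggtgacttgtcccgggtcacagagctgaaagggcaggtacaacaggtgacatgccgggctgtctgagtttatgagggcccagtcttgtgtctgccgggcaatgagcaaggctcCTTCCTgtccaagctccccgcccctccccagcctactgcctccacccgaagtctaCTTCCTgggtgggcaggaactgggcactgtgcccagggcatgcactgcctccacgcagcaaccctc
SERPINA1 window 2: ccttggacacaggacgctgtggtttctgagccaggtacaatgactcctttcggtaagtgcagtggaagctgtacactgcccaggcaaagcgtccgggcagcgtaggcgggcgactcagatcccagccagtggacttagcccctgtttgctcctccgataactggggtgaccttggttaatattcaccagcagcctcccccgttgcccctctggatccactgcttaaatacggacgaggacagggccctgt
The upstream window holds 2 matches and the other 0, and 5.77% of all 35116 windows held at least 2. Here too the motif was picked among those counted, and nothing is read from the share. The probe sets do not tell the starts apart.

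In MOLM-13, SERPINA1 was 5.26, 4.55 and 4.62 with DMSO, 6.01, 6.00 and 6.48 with EPZ004777, 5.12, 5.37 and 5.66 with MI-2-2, and 8.45, 8.35 and 8.50 with both. The MI-2-2 arrays overlapped the DMSO arrays, and the combination arrays were more than a doubling above every other array. The differences from DMSO were 1.35 ± 0.20, 0.57 ± 0.20 and 3.62 ± 0.20. The combination exceeded EPZ004777 alone by 2.27 ± 0.20 and MI-2-2 alone by 3.05 ± 0.20, and the interaction was 1.70 ± 0.28. A second probe set, 202833_s_at, gave a combination difference of 3.63 ± 0.26. The other probe sets, 211428_at and 230318_at, were dim and gave 0.04 ± 0.15 and 0.21 ± 0.11. Its DMSO arrays lay between percentiles 25.8 and 36.8, so SERPINA1 entered the fit through treated arrays and had to differ, differences from such dim arrays are compressed, and no test is given. In RS4;11, SEM and REH its 4 probe sets lay at or under percentile 35 on every array, and it was not tested.

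SERPINB8, a cytoplasmic clade B inhibitor of furin-like and serine proteases, rose with all 3 treatments in MOLM-13. Its signal was 8.58, 8.74 and 8.40 with DMSO, 10.10, 10.15 and 9.96 with EPZ004777, 9.37, 9.25 and 9.33 with MI-2-2, and 10.46, 10.36 and 10.44 with both, and no group overlapped another. In the same order the treatments differed from DMSO by 1.50 ± 0.08, 0.74 ± 0.08 and 1.85 ± 0.08. The combination exceeded EPZ004777 alone by 0.35 ± 0.08 (adjusted p = 0.0079) and MI-2-2 alone by 1.10 ± 0.08 (adjusted p = 3.24e-06). On the dimmer probe set, 1554616_at, the MOLM-13 means were 4.28 with DMSO, 5.92 with EPZ004777, 5.77 with MI-2-2 and 6.49 with both. There the EPZ004777 and MI-2-2 arrays overlapped. The combination exceeded EPZ004777 alone by 0.57 ± 0.25 on it, which limma did not call (adjusted p = 0.106). In SEM, SERPINB8 stood at 5.73 and 5.48 with DMSO, between 5.21 and 5.83 with either compound, and at 6.31 and 6.34 with both. The SEM combination exceeded EPZ004777 alone by 0.86 ± 0.14 (adjusted p = 0.00333), but by 1.26 ± 0.71 with the actin value as a covariate (adjusted p = 0.642). In RS4;11 (6.50 to 6.91) and REH (4.70 to 5.35) the groups overlapped DMSO.

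Myeloid markers also rose with both compounds in MOLM-13, SEM and RS4;11. With the single compounds some serpins had the order of the markers and some did not. In SEM their mean signal was 5.36 to 5.53 with EPZ004777 and 6.17 to 6.19 with MI-2-2. SERPINB10 there had means of 5.96 with EPZ004777 and 4.61 with MI-2-2, against 4.67 with DMSO. SERPINF1 there had means of 6.17 and 6.93, against 6.33 with DMSO. In MOLM-13 the marker mean was 11.09 to 11.20 with EPZ004777 and 10.57 to 10.76 with MI-2-2. SERPINB10, SERPINB8 and SERPINA1 were likewise higher there with EPZ004777, and SERPINF1 was lower (9.01 and 9.49). With both compounds 8 of 9 tested myeloid markers rose and 0 fell in MOLM-13 (23.4% of all genes rose and 25.5% fell). Their mean signal there went from between 10.19 and 10.24 with DMSO to between 11.83 and 11.91. In SEM 6 of 7 rose (14.4% of all genes rose and 15.2% fell), from a mean of 5.13 to 5.21 to one of 6.82 to 6.89. In RS4;11 3 of 6 rose (11.2% and 12.3%), from 5.41 to 5.49 to between 5.90 and 5.99. CD14 and ELANE were above percentile 40 on no array of SEM or RS4;11. In REH 0 of 4 rose and 1 fell (4.37% and 3.12%). B-lineage markers moved too with both compounds, with 4 of 7 up and 1 down in RS4;11 and 3 of 7 up and 2 down in SEM. The part of these markers in the serpin results was not tested.

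SERPINB9 (PI-9) inhibits granzyme B and protects cytotoxic and antigen-presenting cells from their own granules. Its 3 probe sets disagreed. On 209723_at REH had 8.68, 9.65 and 8.77 with DMSO, against 3.33 and 3.53 in RS4;11 and 3.92 and 3.31 in SEM, so RS4;11 and SEM were far below REH. Those RS4;11 and SEM arrays lay between percentiles 11.8 and 23.2, at the dim end of the array, so the size of the gap is not tested. On 209722_s_at the same DMSO arrays read 5.11, 5.62 and 5.55 in REH, 5.34 and 5.31 in RS4;11 and 5.38 and 5.25 in SEM, and overlapped. The third, 242814_at, lay between 3.62 and 4.24 on every array of these 3 lines. The brightest probe set over the arrays of a fit stood for the gene, which was 209722_s_at in RS4;11, SEM and MOLM-13 and 209723_at in REH, and leaving out any REH array moved the choice to 209722_s_at in the comparison of DMSO levels.

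On 209723_at, SERPINB9 in RS4;11 was 3.33 and 3.53 with DMSO, 4.78, 4.86 and 5.07 with EPZ004777, 4.93, 4.93 and 4.55 with MI-2-2, and 7.07, 6.88 and 6.74 with both. The single compounds overlapped each other, both were above DMSO, and the combination arrays were the highest. Against DMSO they differed by 1.48 ± 0.14, 1.38 ± 0.14 and 3.47 ± 0.14 on that probe set. On 209722_s_at the corresponding differences were 0.10 ± 0.07, 0.12 ± 0.07 and 0.00 ± 0.07. In SEM 209723_at read 3.92 and 3.31 with DMSO, 3.18, 4.36 and 4.99 with EPZ004777, 4.46 and 4.29 with MI-2-2, and 4.57 and 4.51 with both, and in REH the groups overlapped between 8.68 and 9.92. The mean combination effect of RS4;11 and SEM exceeded that of REH by 1.90 ± 0.45 on 209723_at, with values of 0.68 to 2.52 over 40 alternatives, from the same dim DMSO arrays and given as a description. In MOLM-13 that probe set was at or under percentile 23.2 on every array.

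**Figure D4:**
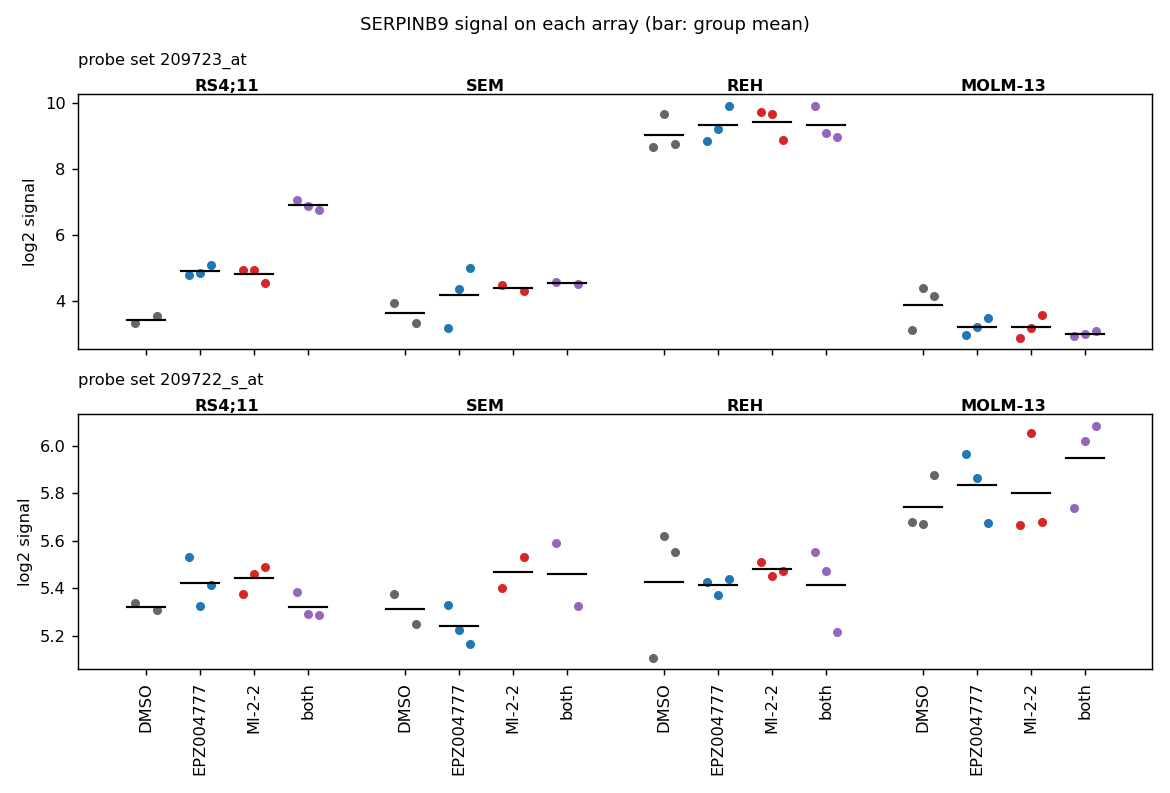
Log2 signal of SERPINB9 (vertical axes) on each array of the 4 human lines by treatment (horizontal axis), for probe set 209723_at above and 209722_s_at below; points are arrays and bars group means. REH is high (8.68 to 9.92) and RS4;11 rises from 3.33 and 3.53 to 6.74 to 7.07 with both compounds on 209723_at, while 209722_s_at is flat.

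SERPINB1 (monocyte and neutrophil elastase inhibitor) blocks elastase, cathepsin G and proteinase 3. On 228726_at it was 11.48 and 11.39 with DMSO in RS4;11, 11.44, 11.51 and 11.47 with EPZ004777, 11.18, 11.01 and 11.08 with MI-2-2, and 11.20, 11.19 and 11.01 with both. MI-2-2 and combination arrays were below the others. The combination differed from EPZ004777 alone by −0.34 ± 0.07 in RS4;11 (adjusted p = 0.00616) and by −0.40 ± 0.07 in SEM (adjusted p = 0.00456), the latter −0.11 ± 0.35 with the actin covariate. Against DMSO the MI-2-2 difference was −0.35 ± 0.08 in RS4;11, −0.27 ± 0.08 in SEM and −0.34 ± 0.13 in REH. In MOLM-13, where 213572_s_at stood for the gene, it rose slightly on that probe set with each treatment, by 0.15 ± 0.04, 0.22 ± 0.04 and 0.27 ± 0.04, from 13.25, 13.20 and 13.25 with DMSO to 13.50, 13.54 and 13.46 with both. The probe sets differed in size of change. On 212268_at the MOLM-13 means were 12.43 with DMSO, 12.89 with EPZ004777, 12.84 with MI-2-2 and 12.94 with both. In RS4;11 the EPZ004777 arrays on 212268_at (10.25 to 10.36) were above the DMSO arrays (9.97 to 10.04). The DMSO level on 228726_at was 2.36 ± 0.10 higher in RS4;11 than in SEM (adjusted p = 2.34e-19) and 2.29 ± 0.10 higher than in REH (adjusted p = 1.76e-20). SEM minus REH was −0.07 ± 0.10, and its direction depended on the probe set (0.15 with the mean of probe sets and 0.44 with that of largest variance).

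SERPINF1 encodes PEDF, a secreted serpin that inhibits blood vessel growth and no protease. In SEM it was 6.40 and 6.25 with DMSO, 6.02, 6.28 and 6.20 with EPZ004777, 6.88 and 6.98 with MI-2-2, and 7.58 and 7.57 with both. EPZ004777 arrays overlapped DMSO and the other groups were stacked above. The combination exceeded EPZ004777 alone by 1.41 ± 0.09 (adjusted p = 3.56e-05) and MI-2-2 alone by 0.64 ± 0.10 (adjusted p = 0.0109), and the interaction was 0.81 ± 0.13 (adjusted p = 0.041). The last 2 calls were lost without either combination array, where the adjusted p was 0.0724 or 0.0619 for the first and 0.141 or 0.137 for the second. With the actin covariate the MI-2-2 difference from DMSO went from 0.60 ± 0.10 to 0.11 ± 0.53 and the combination difference from 1.24 ± 0.10 to 0.78 ± 0.51, and the interaction was 0.89 ± 0.16 (adjusted p = 0.118).

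In RS4;11, SERPINF1 was 8.27 and 8.46 with DMSO, 8.42, 8.24 and 8.14 with EPZ004777, 7.69, 8.04 and 7.88 with MI-2-2, and 7.84, 7.96 and 8.22 with both, a small shift the other way. The MI-2-2 difference of −0.49 ± 0.13 is given as a description. In MOLM-13 it was 9.55, 9.48 and 9.41 with DMSO, 8.85, 9.10 and 9.08 with EPZ004777, 9.46, 9.62 and 9.40 with MI-2-2, and 8.61, 8.88 and 8.39 with both. Combination arrays were below those of MI-2-2 alone, with a difference of −0.86 ± 0.12 (adjusted p = 0.00016), and overlapped those of EPZ004777 alone, with one of −0.38 ± 0.12 (adjusted p = 0.0271), a call lost without combination array 1 or 3 or without EPZ004777 array 2 or 3 (adjusted p up to 0.0991). DMSO levels stood in the order RS4;11, SEM, REH, with steps of 2.04 ± 0.18 (adjusted p = 1.30e-11) and 1.22 ± 0.16 (adjusted p = 5.88e-08). The mean combination effect of RS4;11 and SEM exceeded that of REH by 0.69 ± 0.19, a mean of 2 lines whose values had opposite signs.

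Over all members, 13 of 21 pairs of DMSO levels among RS4;11, SEM and REH were called, including SERPINB9 in REH against both other lines, which rests on the choice of probe set, where 34.3% of all 15853 genes were called between RS4;11 and SEM, 55.8% between RS4;11 and REH and 56% between SEM and REH. SERPINB8 followed the order RS4;11, SEM, REH, with RS4;11 above SEM by 1.19 ± 0.15 (adjusted p = 8.94e-08) and SEM above REH by 0.61 ± 0.14 (adjusted p = 0.000326). SERPINB10 and SERPINA1 were dim in all 3 lines, and none of their pairs was called.

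In the mouse MLL-AF9 cells 7 of the 15 ortholog genes passed the filter. With EPZ004777 1 of 7 was called (5.6% of all 13365 genes called), with MI-2-2 1 (5.26%) and with both 6 (64.7%). EPZ004777 against MI-2-2, here at equal doses, gave 0 calls of 7 in limma (0.501%), with 1 at an unadjusted p under 0.05. The median member difference was −1.57 with both compounds, against −0.10 over all genes.

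Serpinb2 (plasminogen activator inhibitor 2, made by activated monocytes and macrophages) had the steepest rise. It was 3.50, 3.88 and 3.82 with DMSO, 4.80, 4.49 and 5.28 with EPZ004777, 5.27, 5.34 and 5.65 with MI-2-2, and 9.50, 9.84 and 9.46 with both. All treated arrays were above the DMSO arrays, and the combination stood far above the rest. Against DMSO the treatments differed by 1.12 ± 0.20, 1.68 ± 0.20 and 5.86 ± 0.20. The combination exceeded EPZ004777 alone by 4.74 ± 0.20 and MI-2-2 alone by 4.18 ± 0.20, and the interaction was 3.06 ± 0.29, or 2.96 ± 0.35 without combination arrays 2 and 3, those with the highest actin values. Its DMSO arrays lay between percentiles 12.6 and 17.9, so Serpinb2 too entered the fit through treated arrays, and no test is given. Of all genes 63.5% were called for the combination against EPZ004777, 62.6% against MI-2-2 and 48.2% for the interaction. Where arrays 2 and 3 are left out, the combination is 1 array, assumed to vary like the other groups. Serpinb8 rose with both compounds, from 5.50, 5.05 and 5.36 to 6.62, 7.01 and 6.01, and the single compounds overlapped DMSO. Its interaction was 1.23 ± 0.31 (adjusted p = 0.00739), or 1.30 without those arrays.

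**Figure D5:**
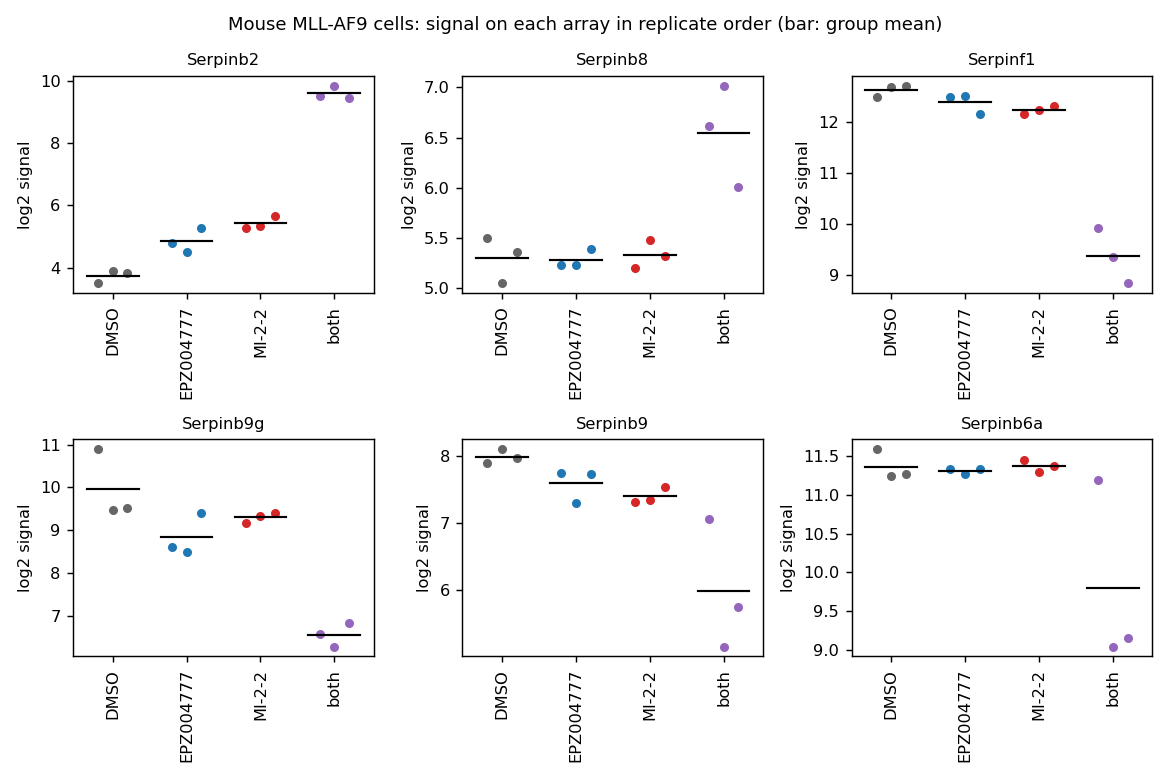
Log2 signal (vertical axes, each on its own range) of 6 serpin genes in the mouse MLL-AF9 cells by treatment (horizontal axis); points are the 3 arrays of a group in replicate order and bars group means. Serpinb2 reaches 9.46 to 9.84 with both compounds, and for Serpinb6a the first combination array (11.20) stands apart from the other 2 (9.04 and 9.15).

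Serpinf1 fell with both compounds, from 12.50, 12.70 and 12.71 to 9.91, 9.35 and 8.83, against 12.17 to 12.51 with EPZ004777 and 12.16 to 12.31 with MI-2-2. Its interaction was −2.63 ± 0.31 (adjusted p = 8.60e-05), and −2.08 with the first combination array alone, where the spread comes from the other groups and no test is given. Serpinb9g, a mouse paralog of the granzyme B inhibitor gene, was 10.89, 9.47 and 9.52 with DMSO, 8.62, 8.49 and 9.40 with EPZ004777, 9.18, 9.33 and 9.40 with MI-2-2, and 6.57, 6.28 and 6.83 with both. The combination was the lowest group, by −2.27 ± 0.36 relative to EPZ004777 (adjusted p = 0.000251) and −2.74 ± 0.36 relative to MI-2-2 (adjusted p = 6.47e-05). Its interaction, −1.61 ± 0.51 (adjusted p = 0.0227), was −1.60 without combination arrays 2 and 3 and no longer called. Clade B paralogs are alike in sequence, and cross-hybridisation between them was not tested.

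On its brighter probe set Serpinb9 differed between the combination arrays, as did Serpinb6a. Serpinb9 was 7.90, 8.11 and 7.98 with DMSO and 7.06, 5.16 and 5.75 with both compounds. Its combination difference from MI-2-2 alone went from −1.41 ± 0.37 (adjusted p = 0.0064) to −0.34 without arrays 2 and 3, where it was no longer called. On its dimmer probe set all 3 combination arrays were low, at 4.01, 3.65 and 4.25, against 5.62, 5.72 and 6.07 with DMSO and 5.08 to 5.50 with either compound. Serpinb6a, a broad cytoplasmic inhibitor that blocks cathepsin G, was 11.59, 11.24 and 11.26 with DMSO and 11.20, 9.04 and 9.15 with both. Its combination difference from EPZ004777 alone went from −1.52 ± 0.44 (adjusted p = 0.0114) to −0.12 without arrays 2 and 3, where it was no longer called. The lowest values of Serpinb6a and of the brighter Serpinb9 probe set were on the arrays with high actin values, and the part of RNA quality in them was not tested. Serpinb1a lay between 12.70 and 13.00 on all 12 arrays on its brighter probe set. On the other it was 12.84, 12.76 and 12.79 with both compounds, above all the remaining arrays (12.24 to 12.56), and the combination exceeded EPZ004777 alone by 0.47 ± 0.10 (adjusted p = 0.00195). The other 8 genes (Serpina1b, Serpina1c, Serpinb1b, Serpinb6b, Serpinb6c, Serpinb9b, Serpinb9c and Serpinb9d) did not pass the filter and were not tested. Myeloid markers rose for 7 of 9 and fell for 1 with both compounds, with a mean signal of 9.24 to 10.10 under DMSO and 11.43 to 11.74 under the combination. Erythroid and platelet markers rose for 2 of 3 and T and NK markers for 2 of 3, with none falling in either list, 1 of 2 stromal markers rose and 1 fell, and 0 of 5 B-lineage markers rose and 2 fell, where 28.5% of all genes rose and 36.2% fell. Their part in the serpin results was not tested.

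The proteases, receptors and remaining serpins were taken from lists drawn up with earlier results of these data known, and up to 3 called genes per list and line were named by size. Of 20 tested proteases in RS4;11, 6 rose and 3 fell with both compounds (11.2% of all genes rose and 12.3% fell). PRSS12 (motopsin, a secreted serine protease) fell by 4.22 ± 0.07 and CTSH (cathepsin H) by 1.71 ± 0.13, and GZMA (granzyme A) rose by 2.47 ± 0.12. In SEM 3 of 18 proteases rose and 5 fell (14.4% and 15.2% of all genes), with PRSS12 down by 3.10 ± 0.08 and CTSH by 1.42 ± 0.13, as differences of −3.10 and −1.42. In MOLM-13 10 of 21 rose and 3 fell (23.4% and 25.5%), led by CTSK (cathepsin K) at 1.60 ± 0.12. In REH 3 of 16 rose and 1 fell (4.37% and 3.12%), and CTSG (cathepsin G) differed from DMSO by −1.02 ± 0.14. In the mouse cells 11 of 17 rose and 3 fell (28.5% and 36.2%), with Ctsh at 4.61 ± 0.41 and St14 (matriptase) at 2.25 ± 0.23.

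Among receptors and cofactors, 5 of 15 rose and 3 fell with both compounds in SEM (14.4% of all genes rose and 15.2% fell), where the heparan sulfate proteoglycan SDC2 rose by 4.11 ± 0.14, THBD (thrombomodulin, the thrombin cofactor) rose by 2.38 ± 0.12 and VLDLR, an endocytic receptor of the LDL receptor family, fell by 1.99 ± 0.15. SDC2 also rose in REH, by 2.88 ± 0.11, where 2 of 13 receptors and cofactors rose and 0 fell (4.37% and 3.12%). In RS4;11 1 of 13 rose and 1 fell (11.2% and 12.3%), SORL1 by 0.56 ± 0.09 and VLDLR with a difference of −0.52 ± 0.09. In MOLM-13 3 of 15 rose and 2 fell (23.4% and 25.5%), with SORL1 at 2.51 ± 0.10 and THBD at 1.55 ± 0.06. In the mouse cells 5 of 16 rose and 5 fell (28.5% and 36.2%): Plaur, the urokinase receptor, rose by 2.92 ± 0.10, Lrp1, the clearance receptor for serpin and protease complexes, rose by 2.68 ± 0.30, and Sdc1 fell by 4.98 ± 0.44. Of the 25 other listed serpins only 4 to 6 passed the filter per human line. SERPING1 (C1 inhibitor) fell by 2.06 ± 0.11 with both compounds in RS4;11, where 1 of 5 rose and 2 fell (11.2% and 12.3% of all genes), and SERPINI1 (neuroserpin) rose there by 0.79 ± 0.12 and fell by 0.57 ± 0.10 in REH.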

How the data were processed

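The authors deposited RMA values on the log2 scale for each probe set, from the affy package and R 3.0.2 per the submitters' processing notes; which arrays were normalized together is not given in the sources used here. RNA (50 ng, RNeasy) was amplified with the Nugen Ovation system, per the labels. The members and the gene lists were chosen with earlier results of these data known. Probe sets with 1 symbol in the platform annotation were kept, human symbols were updated by Entrez identifier, and a gene was represented by whichever probe set averaged highest in that fit, provided 2 or more arrays had it above percentile 40. Each model was fitted alone in limma 3.58.1 under R 4.3.3 (lmFit, eBayes) with a coefficient per treatment; DMSO levels used 44 human arrays and the comparison with REH 32. P-values are two-sided and adjusted by Benjamini-Hochberg over all genes. Every member is named, then up to 3 called genes per list and model by size, then the 5 genes most like SERPINE2. The number of arrays limits the precision. Tested on simulated data for MI-2-2 against DMSO, changes of 1 in log2 were recovered for 91% of genes in RS4;11 (13921 genes), 86.6% in SEM (14037), 88.1% in REH (13961), 94% for MOLM-13 (14209) and 73.1% for mouse cells (13365). Changes of 0.5 were recovered for 56.7%, 38.8%, 43.3%, 70.1% and 32.8% in the same order, so a smaller change could go uncalled. The simulation changed 66 or 67 genes at each size, with independent noise. That is a smaller share than the 12.6% of genes called with MI-2-2 in RS4;11, 17.8% in SEM and 18.5% in MOLM-13. The adjusted p depends on that share, so the recovery rates need not carry over. Promoter sequences are RefSeq's for GRCh38.p14, with windows for 7 of 9 human members. Alternatives changed the filter, probe set, normalization, spread, block, weights, RNA quality covariate, thresholds and arrays.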

Additional observations from a re-analysis of the deposited data

Results flagged for a closer look

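The mean response of SERPINE2 over RS4;11 and SEM differed from that in REH under each treatment, by 0.35 for EPZ004777, −1.20 for MI-2-2 and −1.09 for the combination (log2, mean effect in RS4;11 and SEM minus effect in REH, limma). These and the other differences given here are built from the comparisons that chose the members, and support nothing. The EPZ004777 value of SERPINE2 came mostly from RS4;11, where the means were 9.28 with DMSO and 9.96 with EPZ004777, against 10.76 and 10.87 in SEM. That value lost its call in 17 of 40 alternatives, and the SERPINF1 value below lost it with array weights and without the first REH DMSO array. SERPINB10 differed between the lines by 1.40 for EPZ004777 and 1.77 for the combination, SERPINB9 on 209723_at by 1.90 for the combination, and SERPINF1 by 0.69 for the combination.

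Several responses had opposite signs in lines given the same doses for the same time, with every array of a group on one side of the other group. These differences between lines were not tested, the share of all genes with such a pattern was not counted, and nothing is read from them. In limma the values of SERPINE2 in SEM (adjusted p = 0.0972) and REH were not called. Those of SERPINB8 in REH and of SERPINF1 with both compounds against DMSO in RS4;11 were not called either. For these comparisons 4.81%, 2.01%, 0.172% and 23.5% of all genes were called, in the order named. SERPINE2 with both compounds minus MI-2-2 alone was 0.92 in RS4;11, −0.25 in SEM and 0.23 in REH, so that RS4;11 stood 1.17 above SEM, and SEM minus REH was −0.48. SERPINF1 with MI-2-2 against DMSO was −0.49 in RS4;11 and 0.60 in SEM, a difference of −1.09. SERPINF1 with both compounds against DMSO was −0.36 and 1.24, a difference of −1.60, and for EPZ004777 minus MI-2-2 it was 0.40 and −0.76, a difference of 1.16. SERPINB8 with both compounds minus EPZ004777 alone was 0.86 in SEM and −0.28 in REH, a difference of 1.14. With the actin covariate the SEM SERPINF1 values were 0.11 ± 0.53 for MI-2-2, 0.78 ± 0.51 for both and −0.34 ± 0.46 for EPZ004777 minus MI-2-2. The SEM values of SERPINE2 and SERPINB8 were then −0.24 ± 0.08 and 1.26 ± 0.71.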

How the results depend on the processing

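Of 277 single comparisons of a member, 132 were called and 91 of these kept direction and call in every alternative run for them. By comparison, 0% to 64.7% of all genes were called, with level pairs of MOLM-13 left out. The 277 hold the comparisons that chose the members, members that entered through treated arrays and pairs with MOLM-13. Nothing is read from these counts. In SEM 1 of 20 calls was kept, where the actin covariate separates arrays with and without MI-2-2. With that covariate SEM calls went from 9 to 1 against DMSO, from 4 to 0 for EPZ004777 against MI-2-2 and from 7 to 2 for the combination against each compound with the interaction, and SERPINB1 changed sign against DMSO (0.075 for MI-2-2, 0.023 for the combination). Requiring an absolute log2 change of at least 1 left RS4;11 with 3, 1 and 3 calls in these 3 families (from 9, 3 and 5), SEM with 4, 2 and 3, and MOLM-13 with 8, 1 and 7 (from 15, 5 and 12), and an adjusted p under 0.01 left RS4;11 with 5 against DMSO and MOLM-13 with 3 for EPZ004777 against MI-2-2. In REH, with 0 calls in all 3 families, array weights gave 1 against DMSO and 3 for EPZ004777 against MI-2-2, the mean of probe sets gave 1 against DMSO and the fit shared by 44 human arrays 2. Leaving out each array in turn gave 5 to 10, 2 to 4 and 5 to 5 calls in RS4;11, 6 to 9, 3 to 5 and 4 to 8 in SEM, 0 throughout in REH, 14 to 16, 3 to 5 and 11 to 14 in MOLM-13, 8 to 9, 0 to 0 and 14 to 18 for mouse cells, 31 to 32 of the 42 DMSO level pairs (32 called, 13 of 21 without MOLM-13) and 6 to 7 of the effects against REH (7 called). The low ends in RS4;11 against DMSO came from leaving out a DMSO array.

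SERPINB9 depended on the probe set: in RS4;11 its combination values changed sign against DMSO, EPZ004777 and MI-2-2 with the mean of probe sets (1.17, 0.64 and 0.70) and with the probe set of largest variance or the shared fit (3.47, 1.99 and 2.09), and in MOLM-13 the combination against DMSO was −0.87 in the shared fit. Pairs with MOLM-13 contain the difference in array scale and are read as no result. The SERPINB9 MOLM-13 minus REH value (−5.17) was −5.42 to 0.41 without single arrays, positive without any REH array (0.15 to 0.41, mostly 0.31), and 0.12 without REH DMSO arrays 1 and 3, and SERPINB1 in SEM minus REH was 0.15 with the mean of probe sets and 0.44 with the largest variance. The replicate numbers did not pair the arrays (median correlation of same-numbered deviations −0.11 to 0.10), and the replicate block gave 8, 2 and 5 calls in RS4;11, 6, 4 and 7 in SEM, 0 in REH, 14, 5 and 12 for MOLM-13, 8, 0 and 17 for mouse cells, 32 level pairs and 6 effects. Genes near the dim end of the array have compressed differences, and 2 arrays in a group leave the spread to be borrowed from the other groups.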
